A study of Homo sapiens with 10 samples.

Results

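Semaphorins, ephrins, Slits and netrins, the 4 families of guidance ligands, and their plexin, Eph, Robo and UNC5 receptors were examined in 2 human endothelial cell lines. Protein-coding genes whose GENCODE 44 symbol carries one of these family names with a number or letter were taken as members (SEMA, PLXNA to PLXND, EPHA and EPHB, EFNA and EFNB, SLIT1 to SLIT3, ROBO1 to ROBO4, NTN1 to NTN5 and UNC5A to UNC5D). The rule gave 66 of the 60448 genes in the count table, which holds 19578 protein-coding genes. By role they were 20 semaphorins, 9 plexins, 8 ephrins, 14 Eph receptors, 7 Slits and Robos, and 8 netrins and UNC5 receptors, so that 35 encode ligands and 31 receptors.

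Guidance ligands steer growing axons and vessel sprouts by attraction or repulsion. Class 3 semaphorins are secreted and act through neuropilins and A-type plexins, whereas other semaphorins are anchored in the membrane and bind plexins directly. Ephrins are themselves bound to the membrane and signal into both cells when they meet an Eph receptor tyrosine kinase on a neighbour. Slits act on Robo receptors, and netrins on DCC, neogenin and the UNC5 receptors. In endothelium, ephrin-B2 marks arterial and EphB4 venous cells, plexin-D1 and UNC5B restrain sprouting, and ROBO4 is an endothelial Robo.

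Untreated EA.hy926 cells, made by fusing umbilical vein endothelial cells with the lung adenocarcinoma line A549, were compared with untreated HMEC-1 cells, dermal microvascular endothelial cells that carry the SV40 large T antigen. RNA from confluent monolayers was sequenced in 5 independent biological replicates of each line, and no other treatment or genotype entered the comparison. EA.hy926 was kept in Advanced DMEM with 5% FBS, and HMEC-1 in MCDB 131 with 10% FBS, 1 µg/mL hydrocortisone and 10 ng/mL EGF (epidermal growth factor), so line and medium cannot be told apart. Total counts lay between 34846046 and 39899324 in the EA.hy926 libraries and between 33391640 and 43877224 in those of HMEC-1. Both are single immortalized lines, so p-values measure the spread between cultures of a line and not between donors. In bulk RNA, fewer cells that transcribe a gene and less RNA of it per cell cannot be told apart.

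Values below are CPM, counts per 1000000 reads counted after TMM normalisation, listed for replicates 1 to 5 of a line. A positive log2 fold change (log2FC) means higher in EA.hy926. SE is its standard error as derived from the test statistic, and can be too small where 1 line is near 0 counts. P-values from edgeR's quasi-likelihood test were adjusted by Benjamini-Hochberg over the 16310 genes tested. A gene is counted as past both thresholds when its adjusted p was under 0.05 and its absolute log2FC above 1.

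The endothelial label was checked with 20 marker genes, all of which had counts in both lines. Their summed level was 7650 to 8490 CPM in EA.hy926, led by PECAM1, and 2400 to 2470 CPM in HMEC-1, led by CDH5. Of these markers, 13 were higher (65.0%, against 19.1% of all genes tested) and 3 lower (15.0%, against 16.4%) in EA.hy926 past both thresholds. MMRN1, which encodes multimerin-1, had 5276 to 7266 counts in EA.hy926 compared with 19 to 35 in HMEC-1. EMCN, the sialomucin endomucin, was close to 0 in EA.hy926 with 0 to 2 counts against 678 to 844, and the junction protein gene CLDN5 had 0 to 5 against 51 to 65.

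Markers of other cells also differed between the lines. Of 20 epithelial markers 9 could be tested. Past both thresholds, 2 were higher (22.2%, against 19.1% of all genes) and 3 lower (33.3%, against 16.4%) in EA.hy926. The summed level of the 20 markers was 1280 to 1390 CPM in EA.hy926 compared with 432 to 495 CPM in HMEC-1. KRT7 was the most abundant of them in both lines, the largest differences were those of KRT8 (log2FC = 4.83) and KRT19 (-4.71), and the epithelial cadherin gene CDH1 had at most 1 count in any library. The 13 fibroblast and mural cell markers summed to 414 to 472 CPM in EA.hy926, nearly all RGS5, and to 527 to 552 CPM in HMEC-1, led by the collagen gene COL1A1. COL1A1 had 7 to 15 counts in EA.hy926 compared with 12634 to 16454 in HMEC-1, and COL1A2 had 0 to 3 and 3831 to 5083, whereas DCN and LUM were at 0 in every library. Of the 9 genes tested on that list, 2 were higher (22.2%) and 6 lower (66.7%) in EA.hy926 past both thresholds. The part of these marker differences in the guidance genes was not tested.

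Of the 66 guidance genes 46 had enough counts to be tested, and 42 of these (91.3%) had an adjusted p under 0.05 in edgeR, against 85.8% of all genes tested. Past both thresholds were 22 (47.8%), against 35.5% of all genes. Of these, 7 were higher in EA.hy926 (15.2% of those tested, against 19.1% of all genes) and 15 were lower (32.6%, against 16.4%). CPM of the 2 lines did not overlap for 39 members (84.8%, against 77.4%). The lower genes made up 68.2% of the members past both thresholds and 46.2% of all such genes. When libraries were scaled by their totals alone, which shifted the median log2FC of all genes by -0.13, these shares were 70.8% and 52.3%. The median log2FC was -0.17 over the members and -0.01 over all genes, and the median absolute log2FC was 0.94 and 0.65.

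Ligands carried most of the lower genes. Of 27 ligand genes tested, 3 were higher (11.1%, against 19.1% of all genes) and 12 lower (44.4%, against 16.4%) in EA.hy926 past both thresholds. Of 19 receptor genes 4 were higher (21.1%) and 3 lower (15.8%), near the shares of all genes. The difference between ligands and receptors was not tested. The 4 tested members with an adjusted p above 0.05 in edgeR were EPHB2, PLXNB2, PLXNB3 and SEMA6A.

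**Figure D1:**
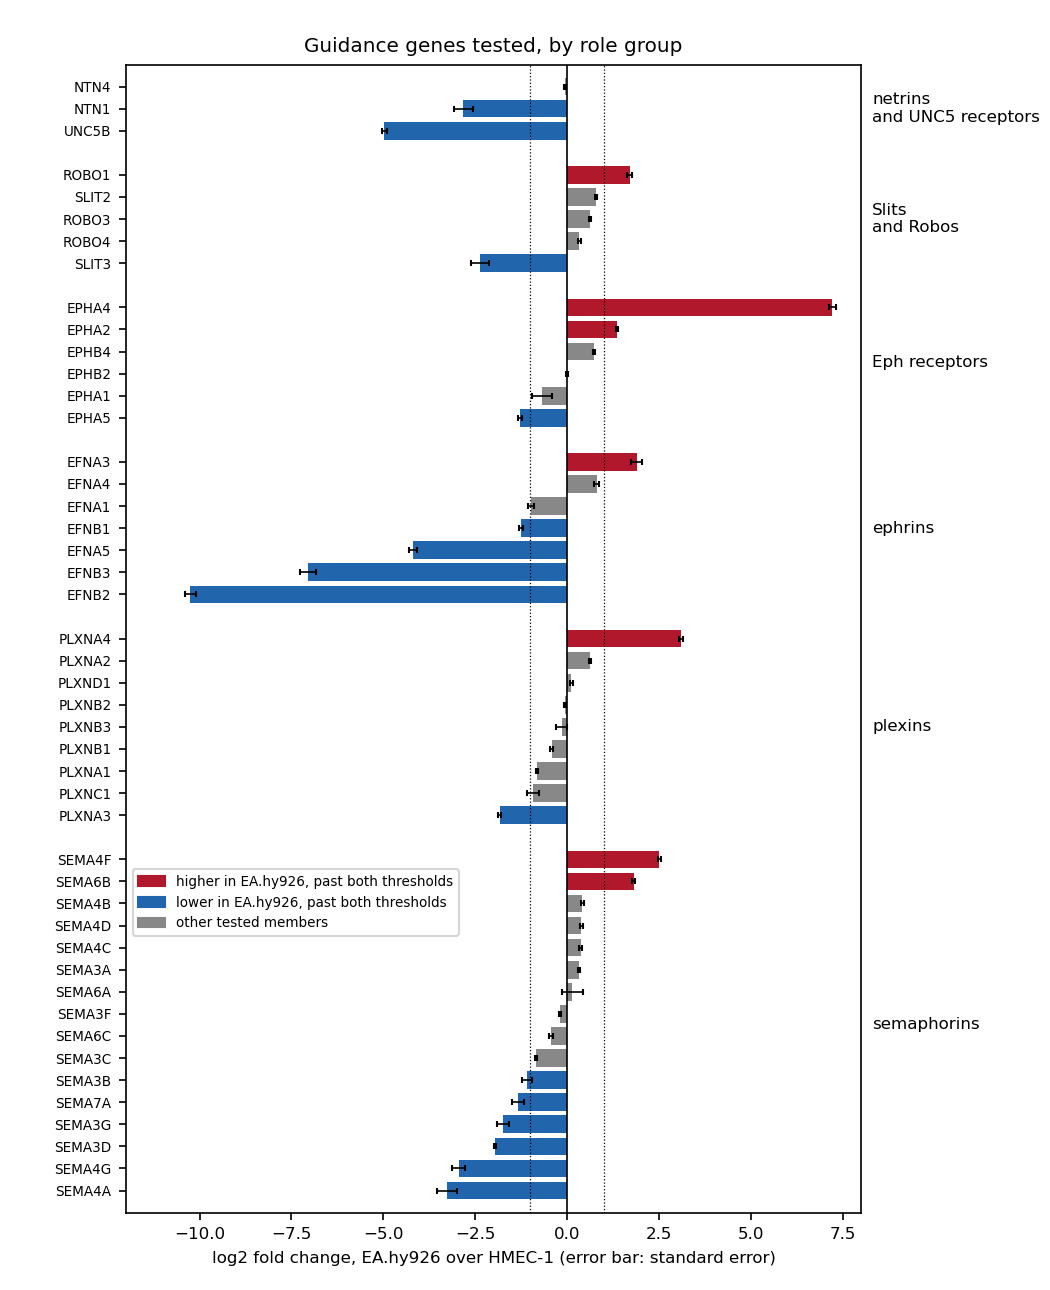
Log2 fold change of EA.hy926 over HMEC-1 for the 46 guidance genes tested (horizontal axis; error bars are standard errors, n = 5 libraries per line), grouped by role. Red and blue bars are the 7 higher and 15 lower genes past both thresholds, grey bars the other 24, and dotted lines mark a log2FC of -1 and 1. The longest bars are those of EFNB2 (-10.25), EPHA4 (7.22) and EFNB3 (-7.05).

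Of 8 ephrin genes 7 were tested, and past both thresholds 4 were lower in EA.hy926 (57.1%, against 16.4% of all genes) and 1 was higher (14.3%, against 19.1%). All 7 had CPM that did not overlap between the lines, as did 77.4% of all genes, and the median log2FC was -1.25. All 3 ephrin-B genes, which encode transmembrane ligands, were among the lower ones. Of 4 tested A-type ephrins, which are held in the membrane by a lipid anchor, 1 was higher, 1 was lower and 2 were under the fold threshold.

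EFNB2 encodes ephrin-B2, the ligand of EphB4. It had 1, 0, 0, 4 and 0 counts in the EA.hy926 libraries and 1350, 1435, 1802, 1558 and 1412 in the HMEC-1 libraries. In CPM these were 0.0271, 0, 0, 0.104 and 0 against 38.5, 35.2, 39.1, 38.2 and 37.0, so that EFNB2 RNA was at or close to the limit of detection in all EA.hy926 libraries and present at one level in all HMEC-1 libraries. The difference was larger than for any other guidance gene tested (log2FC = -10.25, SE 0.156, edgeR adjusted p = 4.1e-23). Pooled over libraries, 7557 counts in HMEC-1 stood against 5 in EA.hy926, a ratio of 1360.0 after scaling with a 95% interval of 582 to 4188 that covers counting error only. The size of the difference rested on few EA.hy926 reads. Without replicate 4, which held 4 of the 5 counts, the log2FC was -11.83. That move of 1.58 is larger than the SE, which understates the uncertainty of this fold change. Exons of an antisense gene, ENSG00000284966, cover 36.4% of the exonic bases of EFNB2, and the library protocol as described does not mark the strand. That antisense gene is absent from the count table, so its level could not be read.

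EFNB3, which encodes ephrin-B3, had 2, 0, 3, 1 and 2 counts in EA.hy926 compared with 238, 249, 295, 264 and 215 in HMEC-1. No EA.hy926 library exceeded 3 counts and no HMEC-1 library fell under 215. Set against 3 counts per library, the EFNB3 level in EA.hy926 was at least 75.5-fold lower (fitted log2FC = -7.05, SE 0.214, edgeR adjusted p = 6.5e-18). EFNB1 was the most abundant ephrin gene per kilobase of exons in both lines, with 67.7, 52.0, 56.4, 58.0 and 53.1 CPM in EA.hy926 compared with 141, 134, 136, 135 and 137 CPM in HMEC-1. Replicate 1 was the highest EA.hy926 library for EFNB1, and it still lay far under the lowest HMEC-1 library (log2FC = -1.25, SE 0.0483, edgeR adjusted p = 4.8e-16).

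EFNA5 encodes the A-type ligand ephrin-A5. It reached 0.866, 0.482, 0.484, 0.703 and 0.674 CPM in EA.hy926 compared with 11.0, 11.1, 12.9, 12.3 and 11.8 CPM in HMEC-1. The 2 ranges were far apart, with an 18.2-fold lower level in EA.hy926 (log2FC = -4.19, SE 0.114, edgeR adjusted p = 9.9e-19). EFNA3 differed in the other direction, with 3.90, 3.46, 3.39, 2.84 and 3.42 CPM in EA.hy926 compared with 0.884, 1.03, 0.651, 0.957 and 1.07 CPM in HMEC-1, 3.71-fold higher in EA.hy926 with no overlap (log2FC = 1.89, SE 0.143, edgeR adjusted p = 5.9e-11).

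Genes for 3 A-type ephrins lie within one stretch of chromosome 1 of GRCh38, all on the plus strand: EFNA4 at chr1:155063737-155069553, EFNA3 at chr1:155078837-155087538 and EFNA1 at chr1:155127876-155134899. EFNA4 and EFNA3 were higher in EA.hy926, and EFNA1, the best known ligand of EphA2, was lower. EFNA4 was at 11.2 ± 0.526 CPM against 6.39 ± 0.670 CPM (mean ± SD, n = 5; log2FC = 0.80, SE 0.0712, edgeR adjusted p = 8.9e-10), and EFNA1 at 6.19 ± 0.709 against 12.1 ± 1.21 CPM (log2FC = -0.97, SE 0.0828, edgeR adjusted p = 4.4e-10). Both missed the fold threshold. The readthrough gene EFNA4-EFNA3 covers 43.9% of the exonic bases of EFNA3 and 15.0% of those of EFNA4, and had 0 counts in every library. EFNA2 was not tested, with at most 7 counts in EA.hy926 compared with 14 in HMEC-1.

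Promoters are shown for the 3 members with the largest differences that had an entry in the RefSeq promoter table, as a view of the DNA next to the genes that differed most. EFNB2, EPHA4 and EFNA5 are read here from GRCh38.p14, 250 bases upstream of the annotated start, 5′ to 3′ on the gene's strand (the minus strand for all 3), with CG dinucleotides in capitals. EFNB2 is at chr13:106535663-106535912, EPHA4 at chr2:221574203-221574452 and EFNA5 at chr5:107670938-107671187.
EFNB2: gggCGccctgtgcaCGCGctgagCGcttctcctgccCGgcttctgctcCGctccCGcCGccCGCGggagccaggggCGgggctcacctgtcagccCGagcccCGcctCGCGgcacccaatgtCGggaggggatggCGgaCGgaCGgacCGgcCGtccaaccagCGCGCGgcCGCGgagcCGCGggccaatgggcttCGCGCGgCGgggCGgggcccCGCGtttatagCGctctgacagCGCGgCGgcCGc
EPHA4: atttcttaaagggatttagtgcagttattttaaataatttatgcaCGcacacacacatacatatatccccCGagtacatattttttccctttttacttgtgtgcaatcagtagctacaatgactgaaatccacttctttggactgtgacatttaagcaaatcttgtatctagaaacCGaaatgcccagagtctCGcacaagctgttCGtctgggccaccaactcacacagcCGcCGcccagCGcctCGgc
EFNA5: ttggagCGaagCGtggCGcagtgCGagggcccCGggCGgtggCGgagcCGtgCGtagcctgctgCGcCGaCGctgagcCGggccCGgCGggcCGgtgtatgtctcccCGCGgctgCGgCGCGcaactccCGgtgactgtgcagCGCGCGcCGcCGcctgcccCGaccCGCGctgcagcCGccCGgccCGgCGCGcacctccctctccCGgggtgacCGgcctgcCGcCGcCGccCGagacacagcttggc

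The promoters of EFNB2 and EFNA5, both lower in EA.hy926, held 40 and 41 CG dinucleotides, a number that 2.16% and 1.73% of the 35114 promoters of that length reached. The promoter of EPHA4, higher in EA.hy926, held 9, reached by 54.1% of promoters, and the median was 11. GGGCGG, the GC box, was found on either strand at 3 places for EFNB2, 1 for EPHA4 and 3 for EFNA5. TATAAA occurred at 1 place in EFNB2 and CCAAT at 2, and neither in the EPHA4 or EFNA5 sequence printed. Of the 66 members 57 had an entry, and 42 of these (73.7%) held GGGCGG, against 42.6% of all promoters. Each member counts with its first entry only, whereas all promoters are every entry of that table. The shares of members and of all promoters are therefore not from like sets, and their difference was not tested. CCAAT was found in 20 (35.1%, against 32.0%), TATAAA in 1 (1.75%, against 10.7%) and TGANTCA, the AP-1 motif, in 1 (1.75%, against 6.57%), each on either strand. The median number of CG dinucleotides was 17 over the members, 14 over the 6 higher genes, 15.5 over the 12 lower genes and 17 over the 17 untested genes with an entry.

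Eph receptors ranged from abundant members to members at 0 counts in every library. Of 14 genes 6 were tested, and 5 of the other 8 had at most 3 counts in every library. Past both thresholds, 2 were higher (33.3%, against 19.1% of all genes) and 1 was lower (16.7%, against 16.4%) in EA.hy926. EPHA4 encodes a receptor that binds both A-type and B-type ephrins. It was at 40.4, 36.8, 38.1, 36.5 and 36.6 CPM in EA.hy926 compared with 0.257, 0.172, 0.260, 0.196 and 0.366 CPM in HMEC-1, where the counts were 9, 7, 12, 8 and 14. All HMEC-1 libraries were close to 0 and all EA.hy926 libraries between 36.5 and 40.4 CPM (log2FC = 7.22, SE 0.0923, edgeR adjusted p = 2.2e-24). From pooled counts the ratio was 151.5, with a 95% interval of 115 to 204 for counting error.

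EPHA2, a receptor for A-type ephrins that is widely expressed in epithelium and endothelium, was at 399.7, 380.1, 398, 411 and 393 CPM in EA.hy926. In HMEC-1 it was at 158, 153, 152, 156 and 156 CPM, and the lines did not overlap (2.56-fold, log2FC = 1.35, SE 0.0252, edgeR adjusted p = 1.2e-21). EPHA5 was lower in EA.hy926, with 6.39, 6.96, 8.0, 7.70 and 8.03 CPM against 18.7, 18.3, 18.2, 17.7 and 17.4 CPM. Its 2 lowest EA.hy926 libraries were replicates 1 and 2, and every HMEC-1 library was above all 5 (log2FC = -1.28, SE 0.0608, edgeR adjusted p = 1.7e-14).

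EPHB4, the receptor of ephrin-B2 and a marker of venous endothelium, was at 399, 354, 363, 352 and 346 CPM in EA.hy926 compared with 220.2, 209.9, 215, 221 and 219.8 CPM in HMEC-1. EA.hy926 lay above HMEC-1 in all libraries, under the fold threshold (log2FC = 0.74, SE 0.0329, edgeR adjusted p = 5.4e-15). EPHB2 was at 137 ± 2.75 and 137 ± 3.11 CPM (mean ± SD, n = 5), overlapped between the lines and had no direction that held under the scalings tried (log2FC = 0.00, SE 0.0253, edgeR adjusted p = 0.98, and log2FC = -0.13, edgeR adjusted p = 4.4e-05 with library totals). EPHA1 was low in both lines, with 9 to 17 and 16 to 35 counts (log2FC = -0.69, SE 0.271, edgeR adjusted p = 0.023). EPHA6, EPHA8 and EPHA10 had 0 counts in all libraries, EPHA3 at most 1 and EPHA7 at most 3, where 3 counts correspond to 0.0651 to 0.0904 CPM. EPHB1, EPHB3 and EPHB6 had at most 4 counts in EA.hy926 compared with 11 in HMEC-1.

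The ligand EFNB2 was well measured in HMEC-1 and near the detection limit in EA.hy926, while RNA of its receptor EPHB4 was present in both. Per kilobase of merged exons, the scale on which different genes are compared, EPHB4 was at 56.4 ± 3.28 CPM per kb in EA.hy926 compared with 33.8 ± 0.731 in HMEC-1, and EFNB2 was at 7.51 ± 0.311 in HMEC-1. Among 10 markers of arterial endothelium 7 were tested. Past both thresholds, 3 were higher (42.9%, against 19.1% of all genes) and 2 lower (28.6%, against 16.4%) in EA.hy926. The list summed to 255 to 283 CPM in EA.hy926 compared with 206 to 222 CPM in HMEC-1, led by NOTCH1 in both. The arterial transcription factor genes went in opposite directions, with 164 to 220 counts of HEY1 in EA.hy926 against 31 to 53, and 0 to 1 of HEY2 against 34 to 43. Among 8 venous and lymphatic markers 6 were tested, all past both thresholds, 4 higher (LYVE1, NR2F2, PROX1 and RELN) and 2 lower (FLT4 and PDPN) in EA.hy926. Their sum was 636 to 712 CPM and 374 to 395 CPM, mostly NR2F2, a regulator of venous identity. PDPN had 0 counts in each EA.hy926 library and 2935 to 3685 in HMEC-1, and FLT4 had 0 to 2 and 352 to 478. The part of these markers in the ephrin and Eph differences was not tested.

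**Figure D2:**
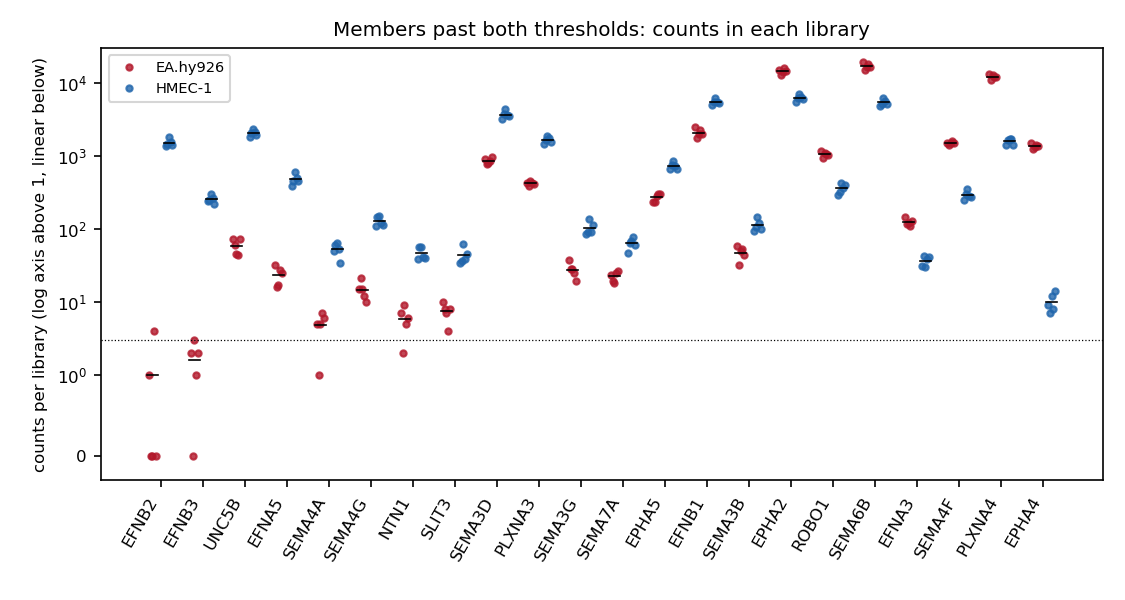
Counts of the 22 guidance genes past both thresholds in each library (vertical axis, logarithmic above 1 and linear below; red EA.hy926, blue HMEC-1, 5 libraries each, horizontal bars are means), ordered by log2FC. The dotted line marks 3 counts, and EFNB2 and EFNB3 are at 0 to 4 counts in EA.hy926. The points of the 2 lines are apart for every gene shown, but the genes were chosen for their difference. CPM of the lines did not overlap for 77.4% of all genes tested.

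Semaphorins formed the largest group. Of 20 genes 16 were tested, 2 were higher and 6 lower in EA.hy926 past both thresholds, and the median log2FC was -0.31. Past both thresholds, 3 of 6 tested genes of the secreted class 3 were lower and 0 were higher, and of 6 in class 4, 2 were lower and 1 was higher. The difference between the classes was not tested, and over all genes 16.4% were lower and 19.1% higher.

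SEMA3D was the class 3 gene with the largest difference. It was at 24.5, 22.9, 22.5, 21.9 and 25.6 CPM in EA.hy926 compared with 90.1, 91.3, 94.7, 90.1 and 90.5 CPM in HMEC-1, where replicate 3 stood above the other 4. The lines were 3.89-fold apart without overlap (log2FC = -1.96, SE 0.0377, edgeR adjusted p = 2.2e-21). SEMA3F, which acts mainly through neuropilin-2, was the most abundant class 3 gene per kilobase in both lines, at 226, 222, 216, 213 and 209 CPM in EA.hy926 compared with 256, 247, 247, 251 and 244 CPM in HMEC-1. Although the ranges did not overlap, the difference was small (log2FC = -0.20, SE 0.0260, edgeR adjusted p = 4.3e-07). SEMA3A, whose product binds neuropilin-1 and acts on vessels as on axons, was at 62.8, 66.6, 65.3, 66.2 and 72.5 CPM and 52.4, 52.4, 53.9, 54.3 and 53.2 CPM, again a small difference without overlap (log2FC = 0.33, SE 0.0340, edgeR adjusted p = 1.3e-08).

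Genes of class 3 lie in 2 stretches of the genome. On chromosome 7, SEMA3C (chr7:80742538-80922359), SEMA3E (chr7:83363238-83649139), SEMA3A (chr7:83955777-84492724) and SEMA3D (chr7:84995553-85187056) are all on the minus strand. SEMA3C was at 75.0 ± 4.01 CPM against 134 ± 2.02 CPM (log2FC = -0.84, SE 0.0320, edgeR adjusted p = 3.6e-16), SEMA3E had at most 1 count in any library, and SEMA3A and SEMA3D differed in opposite directions. On chromosome 3, SEMA3F (chr3:50155045-50189075) and SEMA3B (chr3:50267558-50277546) lie close to each other and SEMA3G (chr3:52433035-52445103) lies farther along. SEMA3B had 32 to 58 counts in EA.hy926 compared with 92 to 146 in HMEC-1 (log2FC = -1.09, SE 0.135, edgeR adjusted p = 1.9e-07), and SEMA3G 19 to 37 and 85 to 136 (log2FC = -1.74, SE 0.169, edgeR adjusted p = 3.9e-09). SEMA3B passed the fold threshold narrowly and did not pass it without EA.hy926 replicate 2 or in a test against a log2FC of 1.

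SEMA6B, a transmembrane ligand of A-type plexins, was the most abundant semaphorin in EA.hy926. It was at 521, 446, 466, 478 and 450.1 CPM in EA.hy926 compared with 137, 126, 135, 138 and 135 CPM in HMEC-1. The HMEC-1 library lowest in SEMA6B was replicate 2, and all 5 lay far under the EA.hy926 range (3.52-fold, log2FC = 1.82, SE 0.0376, edgeR adjusted p = 7.7e-21). SEMA4F, another transmembrane semaphorin, was at 40.4, 42.3, 42.2, 40.9 and 40.4 CPM in EA.hy926 compared with 7.10, 7.23, 7.61, 6.97 and 7.17 CPM in HMEC-1. Values within a line were close to each other, and the lines were 5.71-fold apart (log2FC = 2.51, SE 0.0426, edgeR adjusted p = 2.5e-22).

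Lower class 4 genes were of low abundance. SEMA4A, best known from immune cells, had 5, 1, 5, 7 and 6 counts in EA.hy926 compared with 50, 60, 64, 53 and 34 in HMEC-1, that is 0.135, 0.0301, 0.142, 0.182 and 0.162 CPM and 1.43, 1.47, 1.39, 1.30 and 0.890 CPM. No EA.hy926 library came near the lowest HMEC-1 library (log2FC = -3.26, SE 0.277, edgeR adjusted p = 4.6e-10). SEMA4G had 15, 21, 15, 12 and 10 counts and 110, 143, 148, 119 and 112 counts, or 0.406, 0.633, 0.427, 0.312 and 0.270 CPM and 3.14, 3.50, 3.21, 2.92 and 2.93 CPM. The separation was as clear (log2FC = -2.95, SE 0.173, edgeR adjusted p = 7.9e-13), but other genes cover 28.0% of the exonic bases of SEMA4G, among them MRPL43 with 1014 to 1256 counts in EA.hy926 compared with 1480 to 1961 in HMEC-1, so reads could have been shared. SEMA7A, which encodes a lipid-anchored semaphorin, had 18 to 26 counts in EA.hy926 compared with 46 to 76 in HMEC-1 (log2FC = -1.34, SE 0.166, edgeR adjusted p = 1.7e-07).

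Other semaphorins differed by less than the fold threshold or had few counts. SEMA4B, SEMA4C and SEMA4D were higher in EA.hy926 with log2FC of 0.41, 0.37 and 0.39, and SEMA6C was lower with -0.43. SEMA6A had 7 to 14 and 7 to 15 counts and an edgeR adjusted p of 0.64. SEMA5A had 2 to 5 counts in EA.hy926 and at most 1 in HMEC-1, SEMA5B had 0 in all libraries, and SEMA6D and SEMA3E had at most 2.

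Plexins, the semaphorin receptors, were all tested, and 2 of 9 passed both thresholds (22.2%, against 35.5% of all genes), in opposite directions. PLXNA4, a receptor for class 6 semaphorins and with neuropilin-1 for SEMA3A, was at 360.2, 328, 359.5, 310.5 and 319 CPM in EA.hy926 compared with 40.1, 40.5, 36.9, 42.1 and 36.2 CPM in HMEC-1. Even the lowest EA.hy926 library was far above the highest HMEC-1 library (8.56-fold, log2FC = 3.10, SE 0.0472, edgeR adjusted p = 4.3e-23). PLXNA3 was lower, at 11.6, 11.5, 12.7, 11.1 and 10.9 CPM in EA.hy926 compared with 41.5, 40.6, 40.1, 42.8 and 40.5 CPM in HMEC-1, with narrow ranges and a 3.56-fold difference (log2FC = -1.83, SE 0.0441, edgeR adjusted p = 1.1e-19).

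PLXND1, the endothelial receptor of SEMA3E, was the most abundant plexin per kilobase in both lines. It was at 603, 508, 553, 491 and 490.0 CPM in EA.hy926 compared with 499, 476, 489.8, 490.1 and 478 CPM in HMEC-1. Replicate 1 of EA.hy926 was the highest of all 10 libraries, the lines overlapped, and the direction depended on the scaling (log2FC = 0.12, SE 0.0431, edgeR adjusted p = 0.013 with TMM factors, log2FC = -0.01, edgeR adjusted p = 0.74 with library totals). PLXNA2 was higher in EA.hy926 at 516 ± 21.9 against 333 ± 12.2 CPM (log2FC = 0.63, SE 0.0310, edgeR adjusted p = 3.2e-14), and PLXNA1 was lower at 61.9 ± 2.88 against 109 ± 4.08 CPM (log2FC = -0.81, SE 0.0339, edgeR adjusted p = 1.8e-15). Of the other plexins, PLXNB1 (log2FC = -0.42) and PLXNC1 (-0.91) were lower, and PLXNB2 (-0.05, edgeR adjusted p = 0.092) and PLXNB3 (-0.14, 0.37) overlapped between the lines. Exons of SRPK3, which had 14 to 29 counts in EA.hy926 compared with 25 to 44 in HMEC-1, cover 20.4% of the exonic bases of PLXNB3.

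SEMA6B and PLXNA4, a ligand and its receptor, were both higher in EA.hy926. The opposite held for SEMA7A and PLXNC1, ligand and receptor in immune cells, which were both lower, PLXNC1 under the fold threshold. SEMA3E, the ligand of PLXND1, had at most 1 count beside a PLXND1 level of 490.0 to 603 CPM in EA.hy926 compared with 476 to 499 CPM in HMEC-1. The neuropilins NRP1 and NRP2, co-receptors of class 3 semaphorins, were both higher in EA.hy926. NRP1 was at 208 ± 9.65 against 89.4 ± 2.84 CPM (log2FC = 1.22, SE 0.0324, edgeR adjusted p = 6.2e-19) and NRP2 at 218 ± 15.7 against 80.4 ± 2.54 CPM (log2FC = 1.44, SE 0.0398, edgeR adjusted p = 1.2e-18). Of the class 3 genes, SEMA3B, SEMA3D and SEMA3G were lower past both thresholds. Under the fold threshold, SEMA3C (log2FC = -0.84) and SEMA3F (-0.20) were lower and SEMA3A (0.33) was higher.

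Of 7 Slits and Robos 5 were tested, and 2 passed both thresholds (40.0%, close to the 35.5% of all genes). They were a receptor that was higher and a ligand that was lower in EA.hy926. ROBO1, the broadly expressed Slit receptor, was at 31.9, 28.3, 31.1, 27.1 and 28.0 CPM in EA.hy926 compared with 8.21, 7.92, 9.26, 8.81 and 10.5 CPM in HMEC-1. The lines were 3.27-fold apart with no overlap (log2FC = 1.71, SE 0.0662, edgeR adjusted p = 5.0e-16). ROBO4, the endothelial Robo, was the most abundant member of the group per kilobase in both lines, at 213, 187, 202, 184 and 182 CPM and 157, 150.3, 156, 156 and 148 CPM. Its EA.hy926 libraries, of which replicate 1 was the highest, lay above all HMEC-1 libraries, with a small difference (log2FC = 0.34, SE 0.0370, edgeR adjusted p = 2.9e-08). Antisense genes that had 0 counts in every library cover 18.0% of the exonic bases of ROBO4.

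SLIT2 was at 140.5, 136, 146, 139 and 139 CPM in EA.hy926 compared with 82.7, 81.0, 78.2, 84.8 and 80.6 CPM in HMEC-1. It was higher in EA.hy926 in all libraries but under the fold threshold (log2FC = 0.79, SE 0.0281, edgeR adjusted p = 1.2e-16). SLIT3 was scarce, with 10, 8, 7, 4 and 8 counts in EA.hy926 compared with 34, 36, 61, 39 and 45 in HMEC-1, or 0.271, 0.241, 0.199, 0.104 and 0.216 CPM and 0.970, 0.882, 1.32, 0.957 and 1.18 CPM. Its highest EA.hy926 library was well under the lowest HMEC-1 library (log2FC = -2.36, SE 0.246, edgeR adjusted p = 1.2e-08). ROBO3, best known from commissural axons, lies beside ROBO4 on chromosome 11 on the opposite strand (chr11:124865432-124881471 and chr11:124883691-124898500) and was at 51.8 ± 1.96 CPM against 33.6 ± 1.83 CPM (log2FC = 0.63, SE 0.0390, edgeR adjusted p = 2.2e-12). ROBO2 had at most 1 count, and SLIT1 4 to 18 counts in EA.hy926 compared with 2 to 7 in HMEC-1.

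Netrins and UNC5 receptors were represented by 1 abundant gene. NTN4, a laminin-related netrin of basement membranes, was at 446, 415, 434, 418 and 428 CPM in EA.hy926 compared with 448, 443, 442, 450.2 and 448 CPM in HMEC-1. Its lines overlapped and were nearly level (log2FC = -0.06, SE 0.0240, edgeR adjusted p = 0.028). NTN1, the netrin of the classical axon guidance studies, had 7, 2, 9, 5 and 6 counts in EA.hy926 compared with 38, 56, 57, 41 and 40 in HMEC-1, or 0.190, 0.0603, 0.256, 0.130 and 0.162 CPM and 1.08, 1.37, 1.24, 1.01 and 1.05 CPM. It was low in both lines, and lower in EA.hy926 without overlap (log2FC = -2.82, SE 0.259, edgeR adjusted p = 1.6e-09).

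UNC5B, the UNC5 receptor of endothelium, was at 1.95, 1.81, 1.28, 1.15 and 1.97 CPM in EA.hy926 compared with 52.3, 49.7, 50.4, 51.7 and 50.7 CPM in HMEC-1. All EA.hy926 libraries held 44 to 73 counts and all HMEC-1 libraries 1834 to 2324, a 31.3-fold difference (log2FC = -4.97, SE 0.0772, edgeR adjusted p = 6.1e-23). UNC5A, UNC5C and UNC5D had at most 14, 7 and 3 counts, NTN3 at most 8, and NTN5 2 to 6 in EA.hy926 compared with 7 to 15 in HMEC-1, and these 5 were not tested. Of the other netrin receptors, DCC had 0 to 2 counts in any library, and NEO1, which encodes neogenin, was lower in EA.hy926 with 17 to 25 counts against 153 to 195 (log2FC = -2.83, SE 0.135, edgeR adjusted p = 1.9e-14).

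**Figure D3:**
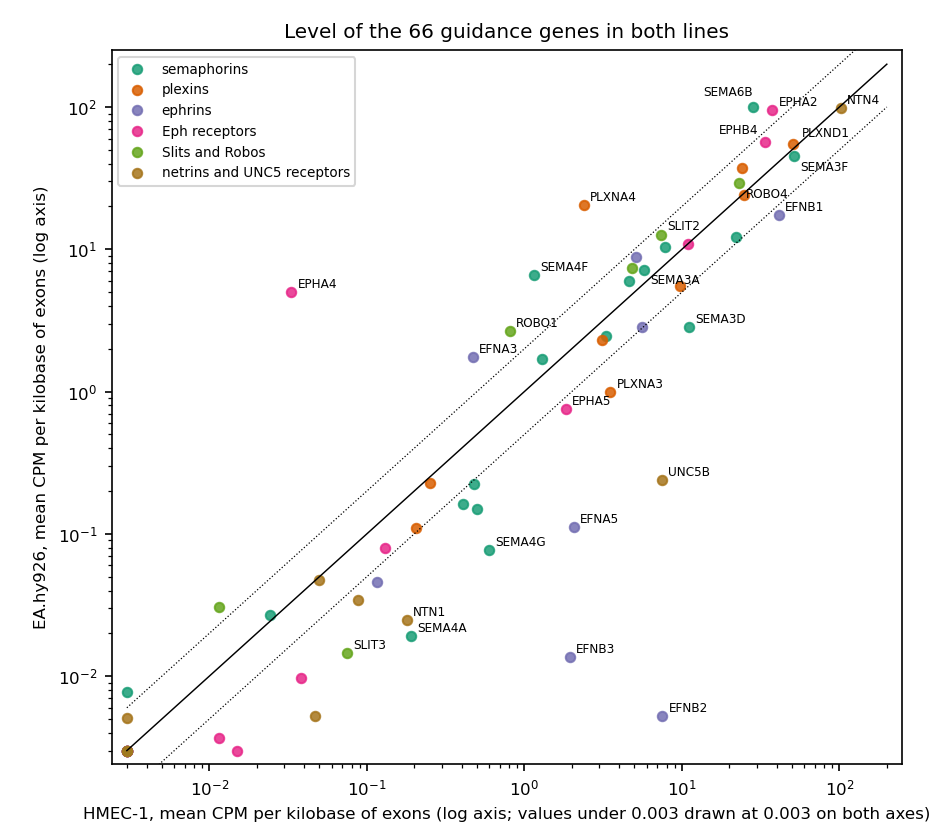
Mean level of the 66 guidance genes in HMEC-1 (horizontal axis) and EA.hy926 (vertical axis), in CPM per kilobase of merged exons on logarithmic axes, n = 5 libraries per line, coloured by role group. The solid line marks equal levels and the dotted lines a 2-fold difference, and means under 0.003 are drawn at 0.003. NTN4, PLXND1 and SEMA3F lie near the solid line at high level, EPHA4 far above it, and EFNB2, EFNB3, EFNA5 and UNC5B far below it.

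Levels within a family were dominated by few members. On the scale of CPM per kilobase of exons, summed over a group, semaphorins were at 195 ± 6.87 in EA.hy926 compared with 139 ± 1.89 in HMEC-1 (mean ± SD, n = 5), a ratio of 1.40 ± 0.0529. SEMA6B made up 51.3 ± 1.52% of that sum in EA.hy926 compared with 20.4 ± 0.518% in HMEC-1, where SEMA3F was first with 37.0 ± 0.447%. Plexins were at 146 ± 7.81 and 119 ± 2.58 CPM per kilobase, with PLXND1 first in both lines at 37.8 ± 1.46% and 42.8 ± 0.321%. PLXNA2 was second in EA.hy926 with 25.5 ± 0.375%, and PLXNB2 second in HMEC-1 with 20.9 ± 0.377% and PLXNA2 next with 20.2 ± 0.481%.

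Ephrins were the group with the lowest sum in EA.hy926, at 31.1 ± 2.09 CPM per kilobase against 64.2 ± 0.632 in HMEC-1, a ratio of 0.484 ± 0.0328. EFNB1 led in both lines with 55.9 ± 2.47% and 64.4 ± 0.711%, followed by EFNA4 (28.7 ± 2.18%) in EA.hy926 and EFNB2 (11.7 ± 0.435%) in HMEC-1. Eph receptors, which ephrins bind, had the opposite balance, at 169 ± 4.91 and 84.2 ± 1.32 CPM per kilobase, a ratio of 2.01 ± 0.0663. EPHA2 and EPHB4 together supplied most of that sum, EPHA2 with 56.7 ± 1.23% and EPHB4 with 33.4 ± 1.24% in EA.hy926, and with 44.5 ± 0.237% and 40.1 ± 0.407% in HMEC-1. Their order in HMEC-1 depended on the length used, since EPHB4 led with 44.3% when levels were divided by the longest transcript. That scale also placed EFNA1 (11.8%) just before EFNB2 (11.3%) among the ephrins of HMEC-1, and PLXNA2 (19.2%) just before PLXNB2 (18.7%) among its plexins.

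Slits and Robos were at 52.0 ± 2.12 CPM per kilobase in EA.hy926 compared with 36.2 ± 0.869 in HMEC-1, a ratio of 1.44 ± 0.0680, with ROBO4 first (56.2 ± 1.57% and 63.9 ± 0.796%) and SLIT2 second (24.4 ± 0.750% and 20.3 ± 0.469%). Divided by the longest transcript, these sums were higher in both lines, at 77.9 ± 3.23 and 54.5 ± 1.32, and their ratio was 1.43. Netrins and UNC5 receptors were at 98.5 ± 2.91 and 110.0 ± 0.936 CPM per kilobase, a ratio of 0.896 ± 0.0275. NTN4 alone was 99.6 ± 0.0621% of this sum in EA.hy926 compared with 92.9 ± 0.106% in HMEC-1, where UNC5B supplied 6.77 ± 0.0972%. Over all 35 ligand genes the sum was 338 ± 11.3 in EA.hy926 compared with 314 ± 2.87 in HMEC-1, and over the 31 receptor genes 355 ± 13.9 and 239 ± 4.57. With library totals in place of the scaling factors the order of the ligand sums turned, at 322 ± 8.71 in EA.hy926 and 328 ± 4.17 in HMEC-1, and that of the receptor sums was kept.

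**Figure D4:**
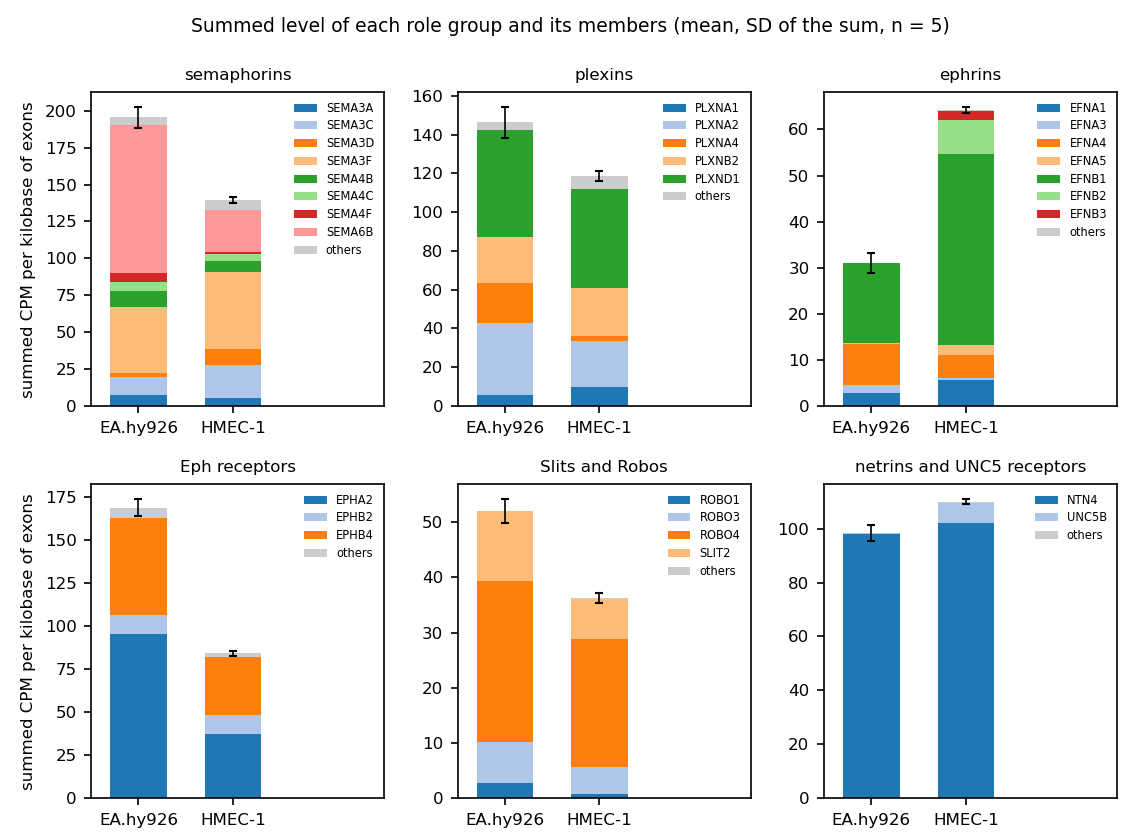
Summed level of each role group in CPM per kilobase of merged exons (vertical axes from 0, mean of 5 libraries per line, error bars are the SD of the sum), divided by member. Members under 3% of the sum in both lines are joined as others. Ephrins were lower and Eph receptors higher in EA.hy926, and SEMA6B supplied more of the semaphorin sum there than in HMEC-1.

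Co-receptors and downstream genes of these pathways were taken as 111 further genes in 5 lists, of which 4 are described. Of these 96 were tested and 32 (33.3%) passed both thresholds, 15 higher and 17 lower in EA.hy926, close to the 35.5% of all genes. In the semaphorin and plexin list 14 of 26 tested genes passed (53.8%), 6 higher and 8 lower. The largest differences there were in L1CAM, an adhesion molecule that associates with neuropilin-1, with 0 to 2 counts in EA.hy926 compared with 23 to 45 in HMEC-1, and in RND2, a small GTPase, with 0 to 4 and 53 to 85 counts (log2FC = -5.15, SE 0.372, edgeR adjusted p = 2.8e-11). Both were close to absent from EA.hy926. Set against 3 counts per library, L1CAM was at least 10.2-fold lower there (fitted log2FC = -5.90, SE 0.506, edgeR adjusted p = 5.3e-10). Without EA.hy926 replicate 2, which had 2 counts of L1CAM and 4 of RND2, the log2FC was -8.05 for L1CAM and -5.79 for RND2.

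In the Eph and ephrin list 4 of 24 tested genes passed, 2 in each direction (16.7% in all, under the 35.5% of all genes). NGEF, which encodes ephexin, an exchange factor bound to EphA4, was higher in EA.hy926 at 2.50 ± 0.224 CPM against 0.386 ± 0.114 CPM (mean ± SD, n = 5; log2FC = 2.70, SE 0.183, edgeR adjusted p = 9.9e-12). SDCBP, whose product syntenin binds the tail of B-type ephrins, was at 842 ± 25.1 against 322 ± 3.38 CPM (log2FC = 1.39, SE 0.0246, edgeR adjusted p = 5.5e-22). The exchange factor genes ARHGEF15 (-1.25) and KALRN (-1.21) were lower by log2FC.

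Of 16 tested genes in the Slit and Robo list, 4 were higher and 1 was lower. PAK1, a kinase activated by Rac and Cdc42, was at 17.1 ± 0.410 CPM in EA.hy926 compared with 1.17 ± 0.195 CPM in HMEC-1 (log2FC = 3.85, SE 0.0827, edgeR adjusted p = 1.5e-20), and ARHGAP39, a GTPase activating protein that binds Robo, at 30.4 ± 1.29 and 4.56 ± 0.385 CPM (log2FC = 2.74, SE 0.0575, edgeR adjusted p = 1.0e-20). Of 14 in the netrin list, 3 were higher (21.4%, against 19.1% of all genes) and 4 lower (28.6%, against 16.4%). DAPK1, a death-associated kinase that UNC5 receptors engage, had 0 to 11 counts in EA.hy926 compared with 3040 to 4064 in HMEC-1 (log2FC = -10.09, SE 0.136, edgeR adjusted p = 5.5e-24), and DRAXIN, a secreted netrin-binding guidance protein, 0 to 1 and 100 to 160, at least 40.9-fold lower at 3 counts per library (fitted log2FC = -7.89, SE 0.356, edgeR adjusted p = 7.5e-15). Without EA.hy926 replicate 4, which had 11 counts of DAPK1, its log2FC was -11.81. That move of 1.72 is larger than the SE, which understates the uncertainty of this fold change. The 3 higher genes of that list were ABLIM1, ABLIM3 and TUBB3.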

How the data were processed

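RNA-seq counts of both lines, untreated, were analysed in 5 libraries each, grouped by the sample labels. The authors enriched mRNA with oligo(dT) beads and sequenced it on an Illumina instrument, and the deposited values are raw counts per gene, neither normalized nor filtered. Per the submitters' processing notes, fastp, HISAT2, featureCounts and DESeq2 were used with GRCh38, whereas the study's methods name HTSeq for the counting. Versions, annotation release and strand setting are not given in the sources used here, so counts of overlapping or near-identical genes are uncertain.

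GENCODE 44 gave symbols, coordinates and merged exon lengths for the 56434 of 60448 Ensembl identifiers it holds, and overlaps of exons were computed with bedtools 2.31.1. Genes passing filterByExpr (minimum count 10, minimum total count 15) were fitted on the whole table in edgeR 4.0.16 (R 4.3.3; TMM factors, glmQLFit, glmQLFTest) without covariates. Thresholds were an adjusted p of 0.05 and an absolute log2FC of 1, as in the study. At these thresholds the study, which used limma, reported more genes lower than higher in EA.hy926. Here the balance over all genes was the reverse, with 3110 higher and 2674 lower. SE is the absolute log2FC over the square root of F. CPM per kilobase is TMM-scaled CPM over merged exon length. With 33391640 to 43877224 total counts, 3 counts make 0.0651 to 0.0904 CPM, the level below which a gene was taken as undetectable. Ratios of pooled counts carry exact binomial intervals (95%).

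The members, the pathway and marker lists and the tests were chosen with earlier results of these data known. Values in every library are given for up to 4 members per role group past both thresholds with the largest absolute log2FC and at least 10 counts in each library of the higher line, for the most abundant member per kilobase in each line, and for EFNB2, EPHB4, ROBO4, PLXND1, UNC5B, SEMA3A, SLIT2 and NTN4, which are known in endothelium. Of each pathway list, and likewise of each marker list, the 2 genes past both thresholds with the largest absolute log2FC were named. Results of 1 of the 5 pathway lists are not reported here. CLDN5, CDH1, KRT7, RGS5, DCN, LUM, PROX1, NRP1, NRP2, ARHGEF15, KALRN, NEO1 and DCC were chosen after their values were seen.

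Replicates were compared in pairs and differed beyond sampling noise (chi-square per gene 3.08 to 7.63), so none was a repeat deposit. The labels number replicates 1 to 5 in both lines. Alternatives were DESeq2 1.42.0, limma-voom (limma 3.58.1), no filter, a minimum of 10 counts per library, library totals, RLE factors, the replicate block, glmTreat, longest transcript lengths and each library left out in turn. Counts were also simulated from the mean levels and sizes of these libraries, with the same dispersion for every gene. All changed genes had the same fold change, above the fold threshold. In these counts edgeR, DESeq2 and limma-voom each called 200 of 200 changed genes among 16075 tested and 0 others. That result does not show how calls fare close to the threshold or where 1 line is near 0 counts. Promoters were 250 bases from RefSeq on GRCh38.p14, and tables and plots were made with Python 3.11.15, pandas 2.3.3, numpy 2.4.6 and matplotlib 3.10.9.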

Additional observations from a re-analysis of the deposited data

Results flagged for a closer look

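In 3 of 51 groups of 5 libraries examined for the members described in full, 1 library stood apart from the other 4 by Dixon's ratio, and chance gives about 1 in 20 such groups. EFNB2 in EA.hy926 was highest in replicate 4, with 0.104 CPM (4 counts) against 0 to 0.0271 CPM in the others. SEMA3D in HMEC-1 was highest in replicate 3, with 94.7 CPM against 90.1 to 91.3 CPM. SEMA6B in HMEC-1 was lowest in replicate 2, with 126 CPM against 135 to 138 CPM. Leaving out any of these libraries moved none of these 3 genes across a threshold or changed the sign of its log2FC. The log2FC of EFNB2 went from -10.25 to -11.83 without EA.hy926 replicate 4.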

How the results depend on the processing

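DESeq2, limma-voom, RLE factors and the replicate block kept the same 22 guidance genes past both thresholds. Library totals added EFNA1 and PLXNC1 and gave PLXND1 a log2FC of -0.0146 in place of 0.12. A test against a log2FC of 1 lost SEMA3B. The filter on low counts mattered more. Without it 31 members passed, among them 6 Eph receptors and 5 netrins and UNC5 receptors, the 9 added having at most 18 counts in any library. With at least 10 counts required in every library 16 passed, among them 3 ephrins, 1 member of the Slits and Robos and 1 of the netrins and UNC5 receptors. That filter removed EFNB2, EFNB3, EPHA4, NTN1, SEMA4A and SLIT3, which are low in 1 line, so their comparison could not be fitted. Over all genes 5784 passed both thresholds, 9312 without the filter and 3255 with the strict one. Leaving out 1 library at a time, 22 to 24 members passed, SEMA3B being lost without EA.hy926 replicate 2. Same-numbered replicates did not pair (correlations of -0.08 to 0.12 over 9537 genes, 1 of 5 EA.hy926 libraries closest to its own number), and with the replicate block 22 members and 5786 genes passed. Ratios of summed levels of the 6 role groups, EA.hy926 over HMEC-1, kept their direction with library totals, at 1.83 for Eph receptors, 1.31 for Slits and Robos, 0.441 for ephrins, 0.815 for netrins and UNC5 receptors, 1.12 for plexins and 1.28 for semaphorins, whereas the sum over all ligand genes turned (322 against 328 CPM per kilobase). All 6 ratios moved beyond 1 SD with library totals. Dividing by the longest transcript moved 21 of 24 summed levels and leading shares beyond 1 SD and none of the 6 ratios. Differences in genes under about 10 counts per library are limited by depth.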

Other observations

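Genes of the guidance families that the count filter left out were not all silent. Of the 20 untested members, 10 had at most 3 counts in every library, 4 of them 0 throughout (EPHA6, EPHA8, EPHA10 and SEMA5B), and the other 10 reached at most 18 counts. SEMA5A had 2 to 5 counts in each EA.hy926 library and at most 1 in each HMEC-1 library, and EPHB6 had 0 in each EA.hy926 library and 1 to 7 in each HMEC-1 library. UNC5C was counted in 3 of 5 EA.hy926 libraries, with 7, 1 and 2 counts, and in no HMEC-1 library. These values are near the limit of 3 counts. SEMA5A, EPHB6 and UNC5C were among the 9 members added past both thresholds when no filter on low counts was applied.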
